A study of Mus musculus with 2 samples.

Results

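The ependymal cells described here are the cells that the authors' deposited annotation names Ependymal: 398 of 22285 cells, of which 133 lay among the 8948 cells of the control library and 265 among the 13337 cells of the Nfia/b/x-deficient library. Single-cell ATAC-seq, which cuts and tags DNA that is open to the Tn5 transposase, was run on nuclei from sorted GFP-positive cells of the microdissected mediobasal hypothalamus at postnatal day 8. Control mice carried Rax-CreER and CAG-lsl-Sun1-GFP. Deficient mice carried the same pair of alleles together with floxed alleles of 3 transcription factor genes (Nfia, Nfib and Nfix), so both groups shared the Cre driver and the nuclear GFP reporter. Rax is a gene of tanycytes, and an ependymal cell entered these data only if it was GFP-positive in the sort. The number of animals behind each library was not given in the sources used here. Each genotype had 1 library, so no difference between genotypes was tested, no p-value is given, and variation between animals could not be measured.

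Ependymal cells are the multiciliated cells that line the brain ventricles, and their beating cilia move cerebrospinal fluid along the wall. In the third ventricle they share that wall with tanycytes, elongated glia that lie further ventrally and send a process into the hypothalamic tissue. FOXJ1, encoded by Foxj1, is the transcription factor that drives the formation of motile cilia, and Foxj1, Ccdc153, Tmem212 and Rarres2 are used as markers of ependymal cells. NFIA, NFIB and NFIX are DNA-binding proteins best known for promoting glial differentiation. The deposited regions carry numbers that the files do not pair with genes or positions. The name Ependymal could therefore not be checked against these 4 markers, loss of Nfia, Nfib and Nfix in ependymal cells could not be checked either: the genotypes are those of the labels.

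The unit of measurement is the detection, which is 1 region found accessible in 1 cell. Control ependymal cells gave 938429 detections and deficient ones 1240148, spread over 99688 and 103177 of the 107377 regions. Control ependymal cells were the deepest type of their library by the median, at 6036 detections per cell (5th to 95th percentile 2475 to 14819). Deficient ependymal cells had a median of 4172 (1509 to 9344). The deficient median was thus 0.691 of the control median, while in the other 8 types this ratio lay between 0.841 (beta2 tanycytes) and 1.02 (oligodendrocyte precursor cells, OPCs). Depth therefore differed between the ependymal cells of both libraries, and its part in the differences below was not tested except where cells were thinned or split by depth. The libraries shared 204 cell barcodes. Of the ependymal cells, 2 control and 9 deficient cells carried such a barcode, and no barcode was ependymal in both libraries. Without all cells that carry a shared barcode, the log2 ratio of ependymal shares was 0.38, against 0.42 with them, and that at the tanycyte-lost regions described below was -0.77 either way.

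**Figure D1:**
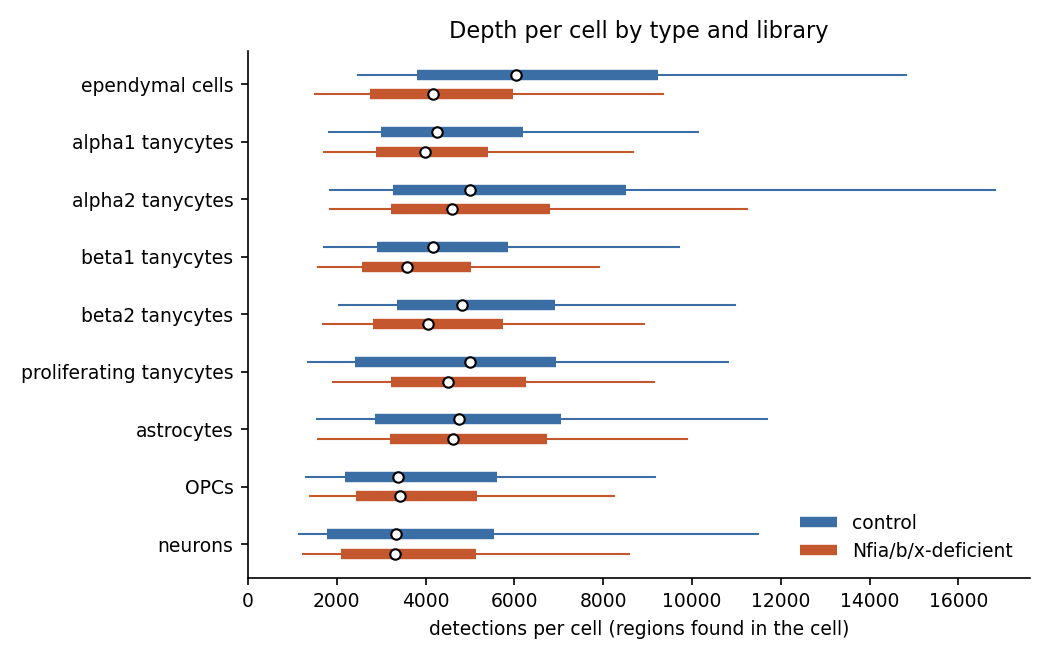
Detections per cell (horizontal axis, linear) for each of the 9 cell types in the control and the Nfia/b/x-deficient library. Circles are medians, thick bars run from the 25th to the 75th percentile and thin lines from the 5th to the 95th percentile of cells. Control ependymal cells have the highest median (6036), and the gap to the deficient library (4172) is the widest of the 9 types.

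Ependymal cells took a larger share of all cells in the deficient library, and both the size and the direction of the difference depended on which cells they were counted against. Intervals here and below are exact 95% intervals that cover counting error only. They were 1.49% of control cells (1.25 to 1.76%) and 1.99% of deficient cells (1.76 to 2.24%). Neurons and proliferating tanycytes together took a larger part of the deficient library, and without these cells the ependymal share was 1.66% (1.39 to 1.97%) and 2.71% (2.40 to 3.05%), a ratio of 1.63 (1.32 to 2.02). There were 28.1 control and 39.6 deficient ependymal cells per 100 alpha1 tanycytes, the most dorsal subtype (ratio 1.41, 1.10 to 1.8). Per 100 beta1 tanycytes the numbers were 8.54 and 10.8 (ratio 1.27, 1.02 to 1.59). The ratio was larger against astrocytes, with 40.9 and 119 ependymal cells per 100 astrocytes (2.90, 2.20 to 3.84), and against OPCs, with 43.8 and 96.7 per 100 (2.21, 1.68 to 2.91). Both of these types took a smaller share of the deficient than of the control library. Against neurons and proliferating tanycytes the direction was the opposite: there were 15.1 control and 10.5 deficient ependymal cells per 100 neurons (0.697, 0.556 to 0.878), and 211 and 25.7 per 100 proliferating tanycytes (0.122, 0.0861 to 0.171). Depth touched this comparison, since cells with under 2000 detections were 2 of 133 control and 30 of 265 deficient ependymal cells. Among deeper cells the ratio was 1.49 (1.2 to 1.86) without neurons and proliferating tanycytes. Counted against all cells it was 1.22 (0.983 to 1.53), and per alpha1 tanycyte 1.28 (0.991 to 1.65), and both of these intervals include 1.

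Regions more open in ependymal cells than in other types were found in each library and could be followed in the other. Each region's level was expressed as detections per 1000000 detections of the type, and compared with the mean level of 7 other types (all but proliferating tanycytes), with a pseudocount of 1 per 1000000. The authors named the types from these same cells, so a region's rank within a library is a description. Of 28606 regions with at least 10 ependymal detections in the control library, 1805 (6.31%) were at least 2-fold higher in ependymal cells. In the deficient library 899 of these 1805 (49.8%) were again at least 2-fold higher, against 5.65% of the 28606 regions, and 91.7% were higher by any amount, against 48.7%. In the deficient library 3875 of 37278 regions (10.4%) were at least 2-fold higher, and 1471 of these (38.0%) were so in the control library, against 5.67% of the 37278. Regions with at least 10 ependymal detections and a 2-fold excess in both libraries numbered 812, which is 3.1% of the 26176 regions with enough detections in both. These 812 are called ependymal regions below. The scores of single cells, the splits of cells and the figures of ependymal regions instead use regions chosen in the other library. The number in both libraries was 326 with a pseudocount of 5, and 2094 or 161 with a minimum of 5 or 20 detections.

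The strongest of these regions were nearly silent elsewhere, yet each was found in a minority of ependymal cells. Region 76821 was found in 20 of 133 control ependymal cells (15.0%, 9.43 to 22.3%) and in 36 of 265 deficient ones (13.6%, 9.70 to 18.3%). Its level was 21.3 (13.0 to 32.9) and 29.0 (20.3 to 40.2) per 1000000, against means of 0.764 and 0.682 per 1000000 over the 7 other types. Among alpha1 tanycytes it was found in 1 of 473 control and 2 of 669 deficient cells. Region 69863 was found in 13 control (9.77%, 5.31 to 16.1%) and 27 deficient ependymal cells (10.2%, 6.82 to 14.5%), at 13.9 and 21.8 per 1000000, against 0.575 and 0.576 over the other types. The median ependymal region was found in 10.5% of control and 7.17% of deficient ependymal cells, and the most widely found one in 33.8% and 24.2%. For comparison, the most widely found of all regions was present in 95.5% of control and 92.5% of deficient ependymal cells. Over the whole series the median ependymal region was found in 560 cells of any type. The median was 496 cells for all regions and 2408 for the 26176 regions with at least 10 ependymal detections in each library, from which the ependymal regions were chosen.

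Ependymal regions were shared to some extent with other glia, most often with alpha1 tanycytes. With both libraries pooled, 410 of the 812 regions (50.5%) were more than 2-fold above each of the 7 other types. Another 223 (27.5%) had 1 other type within 2-fold and 119 (14.7%) had 2. The next most open type was alpha1 tanycytes at 244 regions in each library, 131 of which were the same. Astrocytes came next in both libraries, at 142 and 167 regions. Beta1 tanycytes stood at 102 and 120, alpha2 tanycytes at 110 and 75, OPCs at 87 and 85 and beta2 tanycytes at 80 and 80. Neurons were the next type least often, at 47 and 41 regions. The next type was the same in both libraries at 375 of the 812 regions. How often each type ranks so among all 26176 regions with enough detections was not counted. Pools also differed in size, with 2308534 control detections in alpha1 and 28371961 in alpha2 tanycytes, so these counts are a description. As a set, regions chosen in the deficient library took 39.6 of every 1000 detections of control ependymal cells (39.2 to 40.1). They took 25.5 in control alpha1 tanycytes, 22.8 in both alpha2 and beta1 tanycytes, 22.7 in astrocytes, 19.0 in OPCs, 18 in beta2 tanycytes and 15.8 in neurons. Regions chosen in the control library took 23.8 per 1000 in deficient ependymal cells (23.5 to 24.1) and 12.5 in deficient alpha1 tanycytes, again the next highest type. The ependymal excess over alpha1 tanycytes was 1.55-fold in control cells and 1.90-fold in deficient cells, each measured with regions that the other library chose.

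**Figure D2:**
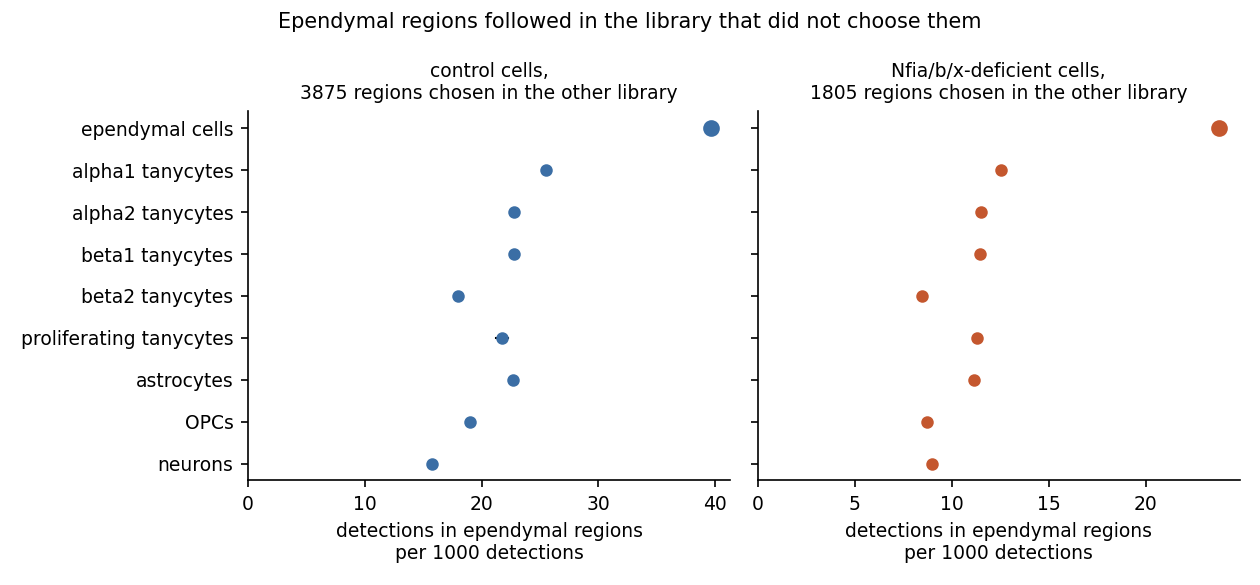
Detections in ependymal regions per 1000 detections (horizontal axes, from 0) for each cell type, in control cells at the 3875 regions chosen in the deficient library (left) and in deficient cells at the 1805 regions chosen in the control library (right). Points are sums over all cells of a type, and black lines are exact Poisson intervals, mostly narrower than the points. Ependymal cells stand at 39.6 and 23.8, and alpha1 tanycytes follow at 25.5 and 12.5; the panels use different regions and are not comparable with each other.

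Few regions that were detected in every other type were at least 2-fold lower in ependymal cells. Considered were 12559 regions with at least 50 detections in each of the 7 other types. Of these, 0 were at least 2-fold higher in ependymal cells in both libraries, so the ependymal regions lie outside this group. At least 2-fold lower in ependymal cells in both libraries were 17 (0.135%). The lowest was region 46127, found in 5 control (3.76%, 1.23 to 8.56%) and 8 deficient ependymal cells (3.02%, 1.31 to 5.86%), at 5.33 and 6.45 per 1000000. It was found in 23.4% of control and 27.4% of deficient OPCs and in 22.7% and 19.1% of neurons. In beta2 tanycytes it was low as well, at 5.90 per 1000000 in the control against 10.4 in the deficient library. Region 36659 followed, at 4.26 and 6.45 per 1000000 in ependymal cells, against means of 21.5 and 22.4 over the other types.

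At the regions that mark other types, ependymal cells took a middle place. Beta2 tanycytes are the subtype over the median eminence. Their regions, when chosen in the other library, were more open in ependymal cells than in either alpha subtype in both libraries. They took 29.7 per 1000 detections in control ependymal cells, 39.2% of the level in beta2 tanycytes themselves (76.0), and 27.9 in deficient ones, 38.7% of the beta2 level (72.0). Ependymal cells were the third of 8 types at these regions, behind beta1 tanycytes. Alpha2 tanycytes followed closely in the control library, at 28.7. The control order was not kept at the 4889 beta2 regions chosen in both libraries. There alpha2 tanycytes had 19.07 per 1000 (19.02 to 19.12) and ependymal cells 18.99 (18.71 to 19.27). At alpha1 regions they were the fourth, behind the other alpha and the beta1 subtype, at 43.7% of the alpha1 level in control cells and 48.9% in deficient ones. At astrocyte regions they stood at 56.4% and 51.8% of the astrocyte level. Neuronal regions took 12.1 per 1000 detections in control ependymal cells, 23.3% of the neuron level. That was within the range of the tanycyte subtypes, from 9.86 in beta2 to 13.5 in alpha2 tanycytes. In the deficient library, where the regions were chosen in control neurons, ependymal cells took 26.4, or 39.8% of the neuron level. The tanycyte subtypes there ranged from 24.2 (beta2) to 30.6 (alpha2).

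Whole profiles placed ependymal cells nearest to their own type. With every type drawn to 900000 detections per library, the square-root profile of control ependymal cells over 30019 regions correlated at r = 0.872 with that of deficient ependymal cells. These correlations run across regions, which are not independent replicates, and profiles from 1 library share that library. Within the control library the next values were 0.845 with alpha2 tanycytes, 0.827 with beta1 tanycytes, 0.824 with astrocytes and 0.822 with alpha1 tanycytes. Within the deficient library they were 0.813 with alpha2 tanycytes, 0.811 with astrocytes and 0.805 with alpha1 and with beta1 tanycytes. Neurons had 0.765 and 0.756. When each cell was given the name of the most likely of 8 type profiles built from the other library, 124 of 133 control (93.2%) and 261 of 265 deficient ependymal cells (98.5%) were called ependymal. Of the 9 other control ependymal cells, 5 went to beta1 and 2 to alpha2 tanycytes. In the other direction, 348 of 4306 control alpha2 tanycytes (8.08%) and 524 of 4902 deficient ones (10.7%) were called ependymal, against 1 of 473 (0.211%) and 17 of 669 (2.54%) alpha1 tanycytes. Of the deficient proliferating tanycytes, which had no profile of their own here, 131 of 1033 (12.7%) were called ependymal. Alpha2 tanycytes were poorly recovered in the control library, where 28.5% were given their own name, against 70.3% in the deficient library.

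Single ependymal cells varied widely in how much of their signal lay in regions chosen as ependymal in the other library. Each cell was thinned at random to 2000 detections, which left 131 control and 235 deficient ependymal cells, and scored at the regions chosen in the other library. Control ependymal cells had 38 to 131 detections in these regions (median 81, quartiles 66 and 95.5). Deficient ependymal cells had 18 to 90 (median 50, quartiles 39 and 60) in the smaller set chosen in the control library. Control alpha1 tanycytes had a median of 51 with an SD of 10.8 over cells (mean 50.8), and control ependymal cells an SD of 19.8 (mean 82.4). Relative to the mean, the spread of ependymal cells was not the widest: control neurons had an SD of 10.8 at a mean of 30.3. The scores of these types overlapped: 45 of 131 control ependymal cells (34.4%) and 44 of 235 deficient ones (18.7%) scored no higher than the 95th percentile of alpha1 tanycytes of their library. The reverse was rarer. At or above the ependymal median stood 1 of 439 alpha1 tanycytes and 75 of 4031 alpha2 tanycytes (1.86%) in the control library, and 28 of 4574 alpha2 tanycytes (0.612%) in the deficient library.

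**Figure D3:**
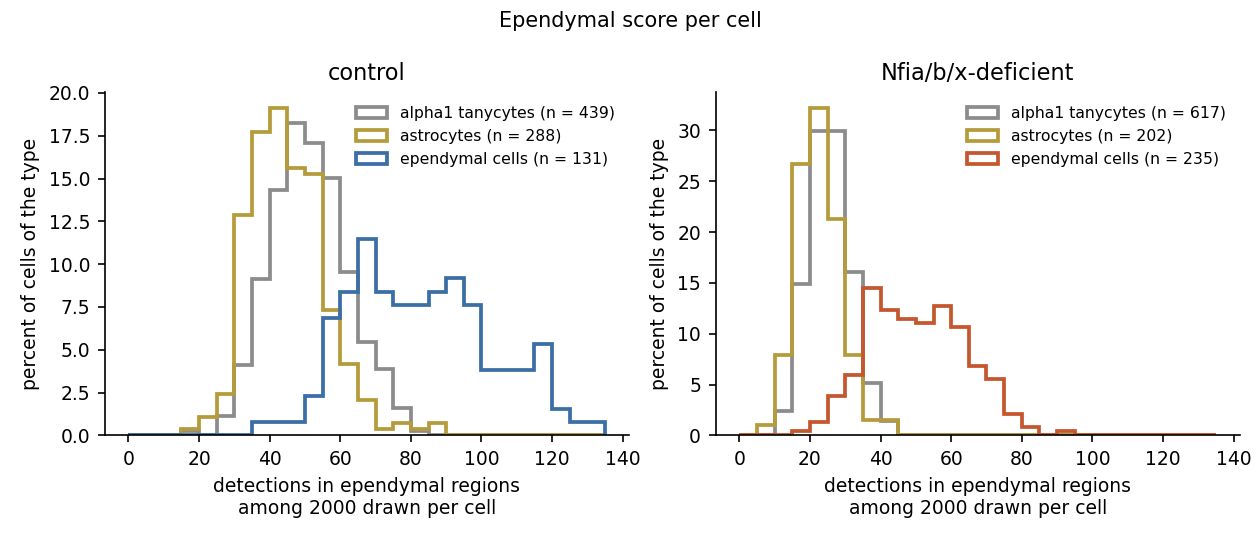
Histograms of detections in regions chosen as ependymal in the other library, among 2000 detections drawn per cell (horizontal axes, bins of 5). Vertical axes give the percent of the cells of each type. Shown are ependymal cells, alpha1 tanycytes and astrocytes in the control (left) and deficient (right) library. Ependymal cells have the highest medians (81 and 50) and, of the types shown, the widest spread in detections. Their lower range overlaps that of alpha1 tanycytes. The libraries were scored at different regions.

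The ependymal score fell with depth in both libraries. Control ependymal cells were scored at the 3875 regions chosen in the deficient library, and deficient ones at the 1805 chosen in the control library. Control ependymal cells below the median depth (66 cells, median 3748 detections) had 45.5 of every 1000 detections there (44.7 to 46.4). The 67 deeper cells (median 9243) had 37.3 (36.9 to 37.8). In the deficient library the 132 shallower cells had 28.6 (28.0 to 29.1) and the 133 deeper cells 21.8 (21.5 to 22.2). Scores of other types at their own regions moved the same way. In control astrocytes the value went from 42.4 to 34.2, in control OPCs from 93.4 to 65.1, and in control alpha1 tanycytes from 41.9 to 37.2. The part of doublets in these values was not tested, and the treatment of doublets before deposit was not given in the sources used here.

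Between the libraries, few single regions differed in ependymal cells. Of 12048 regions with at least 50 ependymal detections over both libraries, 23 (0.191%) were at least 2-fold higher and 26 (0.216%) at least 2-fold lower in the deficient library. Log2 ratios (deficient over control) had a median of -0.03, the 5th percentile at -0.54 and the 95th at 0.47. Of the 812 ependymal regions 144 had enough detections, and of these 3 were 2-fold higher and 0 were 2-fold lower, with a median of 0.02. These 812 were chosen for being open in both libraries, which holds such ratios near 0. After thinning each cell to 2000 detections 3 regions were higher and 1 was lower. Because such counts depend on depth, every type was also drawn to 900000 detections per library. At that depth 29 of 9154 regions (0.317%) were past 2-fold in ependymal cells, 7 higher and 22 lower in the deficient library. Median-of-ratios scaling, at full depth, gave 28 higher and 23 lower, so which direction was more frequent depended on the setting. The share was 0.585% in astrocytes, 0.737% in OPCs, 1.28% in beta2, 1.58% in beta1 and 1.93% in alpha2 tanycytes, 2.01% in neurons and 2.02% in alpha1 tanycytes. Ependymal cells thus had the lowest share of these 8 types, and the SD of log2 ratios over regions was also lowest in them, at 0.31, against 0.33 in astrocytes and 0.39 in alpha1 tanycytes. The draw made detections equal but not cells. It was taken from 133 control and 265 deficient ependymal cells, against 4306 and 4902 alpha2 tanycytes, and a region counts at most once per cell. The part of cell number in this order was not tested, nor whether these shares differ beyond the variation between libraries.

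The 2 lowest regions of the deficient ependymal cells were lower in all 4 tanycyte subtypes, neurons and proliferating tanycytes too. The 2 highest varied in direction among the other types. Region 96451 was found in 37 of 133 control ependymal cells (27.8%, 20.4 to 36.3%) and in 15 of 265 deficient ones (5.66%, 3.20 to 9.16%), which put its level at a log2 ratio of -1.63. In alpha1, alpha2, beta1 and beta2 tanycytes its log2 ratio was -0.90, -0.95, -0.94 and -1.25, and in astrocytes -0.29. In neurons, OPCs and proliferating tanycytes it was -1.43, -1.38 and -1.88. Region 51634 was found in 50 control (37.6%, 29.3 to 46.4%) and 23 deficient ependymal cells (8.68%, 5.58 to 12.7%), a log2 ratio of -1.47. It was at -1.25, -0.96, -0.92 and -1.36 in alpha1, alpha2, beta1 and beta2 tanycytes, -0.25 in astrocytes and 0.01 in OPCs. In neurons and proliferating tanycytes it was at -1.26 and -1.70. Region 94441 was found in 10 control (7.52%, 3.66 to 13.4%) and 41 deficient ependymal cells (15.5%, 11.3 to 20.4%), or 10.7 and 33.1 per 1000000, a log2 ratio of 1.55. Among tanycytes its log2 ratio was 0.79 (alpha1), 0.33 (alpha2), 0.17 (beta1) and -0.22 (beta2), and it was 0.66 in astrocytes and 1.60 in proliferating tanycytes. Region 85058 was found in 10 control (7.52%) and 40 deficient ependymal cells (15.1%), a log2 ratio of 1.51. It was at -0.79 in alpha2 and -0.58 in alpha1 tanycytes, 0.36 in astrocytes and 0.50 in OPCs. Both rested on 10 control cells, and for both the intervals of the shares of cells overlap between the libraries. Those of the levels, from which the log2 ratios come, lie apart. They were 5.11 to 19.6 per 1000000 in the control for both regions, against 23.7 to 44.9 (region 94441) and 23.0 to 43.9 (region 85058). These regions were picked as the highest, which favours such a gap.

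Regions that closed in all tanycyte subtypes of the deficient library were also less open in deficient ependymal cells, but by less. These tanycyte-lost regions were the 186 of 26462 regions (0.703%) that were at least 2-fold lower in each of alpha1, alpha2, beta1 and beta2 tanycytes, and ependymal cells took no part in the choice. Per 1000 detections they made up 3.51 in control ependymal cells (3.39 to 3.64) and 2.06 in deficient ones (1.98 to 2.14), a log2 ratio of -0.77 (-0.84 to -0.69). Alpha1 tanycytes went from 5.23 to 1.85 (log2 ratio -1.50, -1.54 to -1.45), and the other 3 subtypes had ratios from -1.44 to -1.73, values that the choice of regions favours. Of the types that took no part in the choice, neurons had -1.87 (-1.91 to -1.83), OPCs -1.0 (-1.08 to -0.93) and astrocytes -0.56 (-0.62 to -0.49). Only astrocytes had a smaller fall than ependymal cells among the 9 types. The level in control ependymal cells was within the range of the 4 tanycyte subtypes (3.44 to 5.23), and that in deficient ependymal cells was above their range (1.10 to 1.85). Of the 186 regions 18 had at least 50 ependymal detections. Of these, 3 (16.7%) were at least 2-fold lower in ependymal cells, against 0.216% of all regions tested there, and their median log2 ratio was -0.73, against -0.03.

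Some tanycyte-lost regions were among those chosen as ependymal in the deficient library. Of the 186, 122 had at least 10 ependymal detections in that library, and 24 of these 122 (19.7%) were chosen, against 10.4% of all regions with as many. In the control library 0 of 165 were chosen, against 6.31%. Tanycytes make up part of the reference for this choice and were lower at these regions by their selection, so the shares are given as a description.

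Regions that opened in all tanycyte subtypes were few, and they opened in ependymal cells as well. At least 2-fold higher in each of the 4 subtypes were 9 regions (0.034%). Together they had 0.0352 detections per 1000 in control ependymal cells (0.0242 to 0.0494) and 0.105 in deficient ones (0.0876 to 0.124), a log2 ratio of 1.58 (1.02 to 2.17). In the 4 tanycyte subtypes it ranged from 1.77 (beta1) to 1.95 (alpha2), and in astrocytes it was 1.79 (1.31 to 2.29). The interval in ependymal cells, which rests on 33 control detections, overlaps that of each other type. A larger set separated them more: at the 500 regions highest in deficient over control alpha2 tanycytes, ependymal cells had a log2 ratio of 0.76 (0.68 to 0.84). That was the lowest value of the 9 types, below the 4 tanycyte subtypes (1.14 to 1.48). The choice of regions favours the highest of these, the 1.48 of alpha2 tanycytes. The ependymal interval overlaps those of astrocytes (0.83, 0.76 to 0.90) and OPCs (0.87, 0.80 to 0.94). None of the 9 regions had 50 ependymal detections, so no single one was followed.

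**Figure D4:**
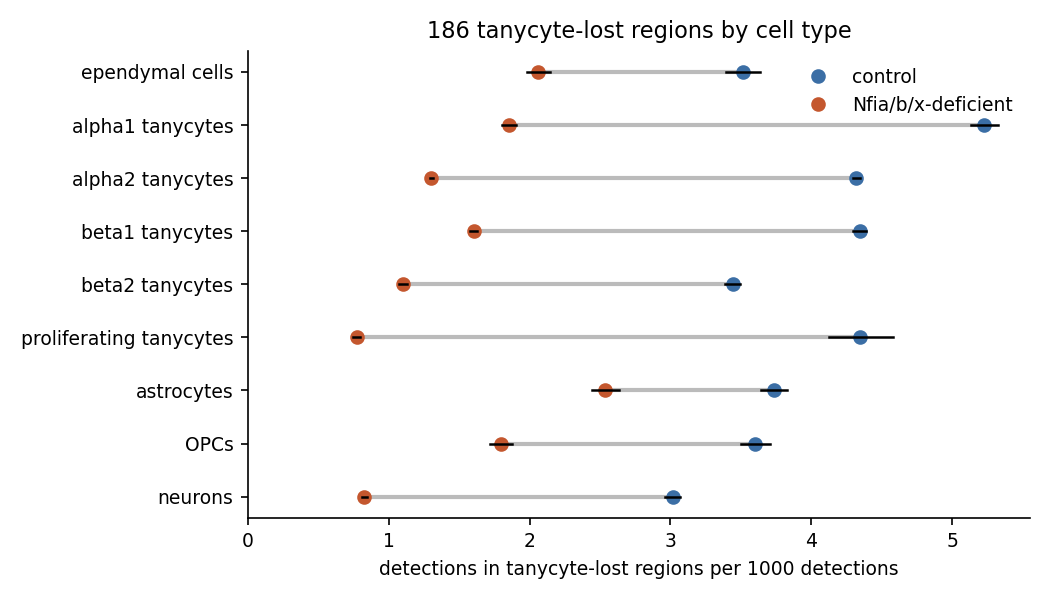
Detections in the 186 tanycyte-lost regions per 1000 detections (horizontal axis, from 0) in control and Nfia/b/x-deficient cells of each type. Points are sums over the cells of a type, black lines are exact Poisson intervals and grey bars join both libraries. The bar of ependymal cells runs from 3.51 to 2.06 and is shorter than that of every type except astrocytes.

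Within the ependymal class, the difference at tanycyte-lost regions was larger in cells with a low ependymal score. Among cells thinned to 2000 detections, control ependymal cells had 1 to 14 detections in these regions (median 7, SD 2.77, n = 131 cells) and deficient ones 0 to 16 (median 4, SD 2.76, n = 235 cells). The distributions overlapped: 53 deficient cells (22.6%) were at or above the control median, as were 71 control cells (54.2%). In a split chosen after seeing the data, cells were divided at the median ependymal score of their library, with tanycyte-lost and tanycyte-gained regions taken out of the score. Below the median, tanycyte-lost regions took 3.67 per 1000 in the control (66 cells) against 1.72 in the deficient library (132 cells), a log2 ratio of -1.09 (-1.19 to -0.99). At or above the median they took 3.27 (67 cells) and 2.63 (133 cells), a log2 ratio of -0.32 (-0.43 to -0.20). The cells with more ependymal signal thus had less of a difference between the libraries. The intervals cover counting error only, and whether the ratios differ beyond the variation between libraries was not tested. Each library was scored at regions chosen in the other, so low and high scores are not equivalent between the libraries.

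The same split in other types gave differences in the same direction in most of them. In astrocytes split by the astrocyte score the log2 ratio was -0.75 (-0.84 to -0.66) below and -0.33 (-0.42 to -0.23) at or above the median. In OPCs it was -1.24 and -0.64, and in alpha1 tanycytes -1.94 and -1.14. Beta1 tanycytes had -1.57 and -1.30, and beta2 tanycytes -1.74 and -1.52. In neurons the values were -1.87 and -1.86, and in alpha2 tanycytes the order was the opposite, at -1.59 and -1.88. Depth moved with the score, since the low-scoring ependymal cells had medians of 8224 detections in the control against 5670 in the deficient library, and the high-scoring ones 4975 and 3202. Split by depth alone, the log2 ratio was -0.49 (-0.63 to -0.35) in the shallower and -0.89 (-0.98 to -0.80) in the deeper ependymal cells. In the same split the fall was also larger in deeper cells of astrocytes (-0.40 and -0.62), OPCs (-0.84 and -1.06) and beta2 tanycytes (-1.53 and -1.69). The order was the opposite in alpha1 (-1.57 and -1.46), alpha2 (-1.77 and -1.72) and beta1 tanycytes (-1.57 and -1.38), and in neurons. The parts of depth, doublets and misnamed cells in this pattern were not tested.

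**Figure D5:**
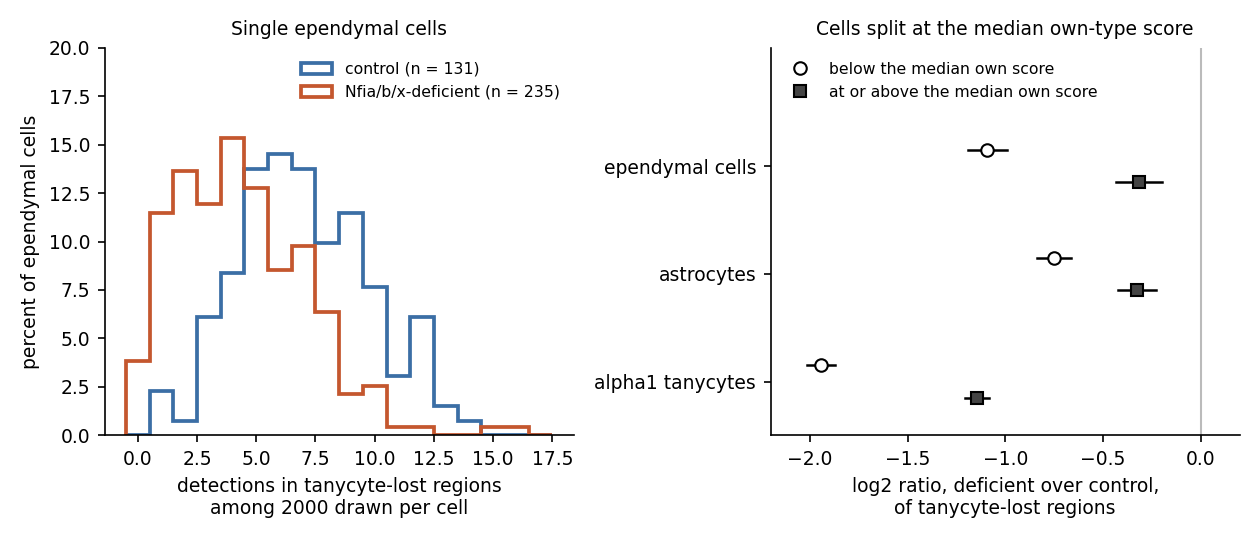
Left, percent of ependymal cells (vertical axis) by their number of detections in tanycyte-lost regions among 2000 drawn per cell (horizontal axis), for 131 control and 235 deficient cells, with medians of 7 and 4. Right, log2 ratio of deficient over control at tanycyte-lost regions (horizontal axis) in cells below and at or above the median score for their own type, with exact intervals; the ependymal values are -1.09 and -0.32.

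Sets of regions of other types differed between the libraries in ependymal cells by log2 ratios from -0.27 to 0.43. For each type, regions at least 2-fold above the mean of the other types in both libraries were summed. Between the libraries the log2 ratio in ependymal cells was 0.00 at 857 astrocyte regions (-0.05 to 0.05), -0.11 at 1803 alpha1 regions (-0.15 to -0.06) and -0.08 at 4889 beta2 regions (-0.11 to -0.05). It was lowest at 519 beta1 regions, at -0.27 (-0.35 to -0.19), which took 2.41 per 1000 detections in control and 2.00 in deficient ependymal cells. It was 0.23 (0.19 to 0.27) at 3600 neuronal regions, which took 7.94 and 9.31 per 1000, and 0.07 (0.03 to 0.10) at 2419 OPC regions. At alpha2 regions it was 0.43 (-0.09 to 0.96), an interval that includes 0, from 16 regions with 50 control and 89 deficient detections. These shifts were not particular to ependymal cells. The neuronal regions rose more in every other type except neurons, by 0.31 in OPCs to 0.67 in proliferating tanycytes, and fell in neurons (-0.20). The beta1 regions had -0.36 in OPCs and -0.52 in proliferating tanycytes, and values from -0.18 to 0.10 in the remaining types.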

How the data were processed

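Reads were processed with Cell Ranger ATAC 1.1.0 at default parameters, per the labels' protocols. The build mm10 and the tools Cell Ranger 3.1, Signac 0.2.5, Seurat and MACS2 are named without roles, per the submitters' processing notes. How regions were called, cells filtered and types named was not given in the sources used here. Presence or absence of 107377 regions in 22285 cells, with no other value, is what the deposited matrix holds, per the file headers, and the order of cells was assumed to be that of the deposited annotation. Presence saturates at 1 per cell, so regions open in most cells are understated in deep cells.

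Cells are not replicates, so each type's detections were pooled per library and expressed relative to the pooled total. Log2 ratios used a pseudocount of 1 per 1000000. Shares have Clopper-Pearson, sums Poisson and ratios conditional binomial intervals (95%); ratios to another type have conditional odds-ratio intervals. Intervals treat detections as independent, which makes them too narrow where the cells of a type differ. Equal depth was made by drawing detections without replacement. Assignment used the likelihood under profiles mixed from 80% of the type and 20% of all types. The ratio script was tested on simulated data. Regions were named by rule: the 2 most specific ependymal regions, the 2 least open ones (with at least 50 detections in each other type), and the 2 highest and 2 lowest between libraries. The members, the region sets and the tests were chosen with earlier results of these data known. Alternatives were other pseudocounts, minimums, references, scalings, depths and cell selections. Comparisons of genes and sequences were not run, because regions have no positions. Scripts ran in Python 3.11.15 with pandas 2.3.3, scipy 1.17.1, numpy 2.4.6 and, for plots, matplotlib 3.10.9.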

Additional observations from a re-analysis of the deposited data

How the results depend on the processing

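No paired analysis was possible because each genotype had 1 library. Of the 61 alternative values, 29 stayed within the interval or tolerance of the reported value, and no log2 ratio among them changed sign. The log2 ratio of ependymal shares (0.42) ranged from 0.29 (-0.03 to 0.61, which includes 0) to 0.70 over its alternatives. Counts per neuron (-0.52) and per proliferating tanycyte (-3.04), where the direction was the opposite, were not among these alternatives. The number of ependymal regions (812) was 326 with a pseudocount of 5, 2094 with a minimum of 5 detections and 161 with a minimum of 20. With the same settings the percent followed from control to deficient (49.8) was 46.4, 39.8 and 59.1, and that from deficient to control (38.0) was 27.8, 33.2 and 43.1, or 32.4 against all other cells pooled. Regions 2-fold higher and lower in deficient ependymal cells (23 and 26) numbered 11 and 13 with a pseudocount of 5, 12966 and 10216 with no minimum, 1 and 1 with a minimum of 100, 3 and 1 in thinned cells, and 28 and 23 with median-of-ratios scaling, so the more frequent direction changed; the cause was not tested beyond these settings. The log2 ratio at tanycyte-lost regions (-0.77) was -0.68 in thinned cells. Splits chosen after seeing the data gave -0.49 and -0.89 below and at or above the median depth, and -1.09 and -0.32 below and at or above the median score. At tanycyte-gained regions (1.58) it was 0.76 at the 500 regions highest in alpha2 tanycytes, 2.58 with a pseudocount of 5, 2.33 in thinned cells and 2.40 in shallower cells. The deficient median score per 1000 detections (25) was 21.8 at 4000 detections, which left out 124 cells. Over all regions, r with alpha2 and alpha1 tanycytes (0.845 and 0.822 for control cells, 0.813 and 0.805 for deficient ones) was 0.855 and 0.836, and 0.824 and 0.816. Leaving out cells with a barcode found in both libraries, also added after seeing the data, gave 19 regions higher and 30 lower.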
